A study of Mus musculus with 360 samples.

Results

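The genes described are the potassium channel subunits, taken as every row of the exon count matrix whose symbol starts with Kcn followed by family letters and a number. Of 48440 genes in the matrix, 98 matched, and 5 antisense or overlapping transcripts (Kcnmb4os1, Kcnmb4os2, Kcnd3os, Kcnab3os and Kcnq1ot1) were set aside, which left 93 subunit genes. The cells came from the cochleae of mice at 5 weeks of age, after tamoxifen at 3 weeks, and were sorted one by one on tdTomato and EpCAM after papain digestion. The 180 GAP cells came from animals with Fbxo2CreERT2, which makes Cre in Fbxo2-expressing cochlear supporting cells on tamoxifen, the Rosa26-tdTomato reporter and the Rosa26-GAP allele, which carries Gfi1, Atoh1 and Pou4f3. The 180 control cells came from animals with Fbxo2CreERT2 and the tdTomato reporter alone. Both groups therefore share the driver, the reporter and the drug, and each deposited sample is 1 cell. The authors' annotation places 341 of the cells in 9 clusters, whose names are used here as deposited.

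A potassium channel is assembled from pore-forming subunits, which decide what opens it, and auxiliary subunits, which change its gating or its traffic. In the cochlea, hair cells release potassium through voltage-gated and calcium-activated channels such as BK (Kcnma1) and SK2 (Kcnn2). Supporting cells and the stria vascularis take it up and return it to the endolymph, through Kir4.1 (Kcnj10) with its partner Kir5.1 (Kcnj16), and at the last step through the channel that Kcnq1 and Kcne1 form in marginal cells.

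A GAP cell held a median of 28963 unique molecular identifiers (UMIs), and a control cell 21280. Levels are UMIs summed over a set of cells and scaled by that set's total UMIs to CPM, the usual parts-per-million scale. Their 95% intervals are exact Poisson intervals, and intervals of ratios are exact conditional-binomial intervals. No animals are named in the labels. Each genotype is therefore 1 sample, no test was made, and every interval covers counting error only. The titles carry a letter, C (92 cells) and D (88 cells) for GAP and A (91 cells) and B (89 cells) for control, which means that genotype and letter cannot be told apart. Levels are therefore also shown letter by letter. In pooled cells, more cells with a gene and more RNA per cell cannot be told apart, and shares of cells are given where both can be seen. Hair cell markers summed to 3682 CPM in Reprogrammed Hair Cells, 2369.9 CPM in Reprogammed Sup Cells 1 and 883 CPM in Reprogrammed Supp Cells 2, against 156 to 399.8 CPM in the other 6 clusters. Atoh1, which the GAP allele carries, was at 815, 1097 and 503 CPM in the same 3 clusters in the same order, against 3.80 to 35.5 CPM in the other 6. Supporting cell markers summed to 10605, 12303 and 16544 CPM in the same 3 clusters, against 4633 to 15268 CPM in the other 6. Most of each of the 3 sums was 1 gene, S100a1, at 7793, 9236 and 11381 CPM in the same order.

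Of the 93 subunit genes, 67 had at least 1 UMI among the 360 cells and 26 had none. They held 25882 UMIs in all. The inward rectifier genes Kcnj16 and Kcnj10 carried most of these, and 24 genes had only 1 to 10 UMIs. A member is called measured here at 10 CPM or more in either genotype, which 24 members reached and 43 with a UMI did not. The number of subunit genes with a UMI in a cell had a median of 9 in GAP cells and 5 in control cells. After each cell was thinned to 8000 UMIs, which left out 3 control cells, the medians were 6 in GAP cells and 4 in control cells. More kinds of subunit were therefore detected per GAP cell at equal depth. The number of all genes detected per cell was not compared, so this is not shown to be particular to subunit genes. The UMIs of all subunits together were fewer, at 2324 CPM in GAP cells against 3352 CPM in control cells. The inward rectifier class set that sum, with 919.6 CPM in GAP cells and 2888 CPM in control cells. The pore-forming voltage-gated subunits went the other way, with 999.7 CPM in GAP cells and 203 CPM in control cells.

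Of the 24 measured members, 13 were at least 2-fold higher in GAP cells, where 13% of 10152 measured genes were. Another 3 members were at least 2-fold lower, where 6.61% of all measured genes were, and 8 lay within 2-fold. In each of the 4 combinations of 1 GAP and 1 control letter, 11 members were at least 2-fold higher, against 7.51% of genes, and 2 were at least 2-fold lower, against 3.05% of genes. A member can pass the filter through the genotype in which it is higher. In 1 genotype alone, 10 CPM was reached by 7 of the 13 higher members, 1 of the 3 lower ones and 3 of the 8 within 2-fold, so these counts describe the set and carry no more weight than that. The median log2 ratio, with 1 CPM added to both levels, was 1.18 over the 24 members and 0.10 over all measured genes. By class, 9 of 12 measured voltage-gated pore-forming subunits were higher and none was lower. Of 3 measured auxiliary subunits, 2 were higher and 1 was lower, and of 5 inward rectifiers 1 was higher and 2 were lower. Of 2 measured calcium- or sodium-activated subunits, 1 was higher, and 0 of 2 measured two-pore subunits changed by 2-fold.

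**Figure D1:**
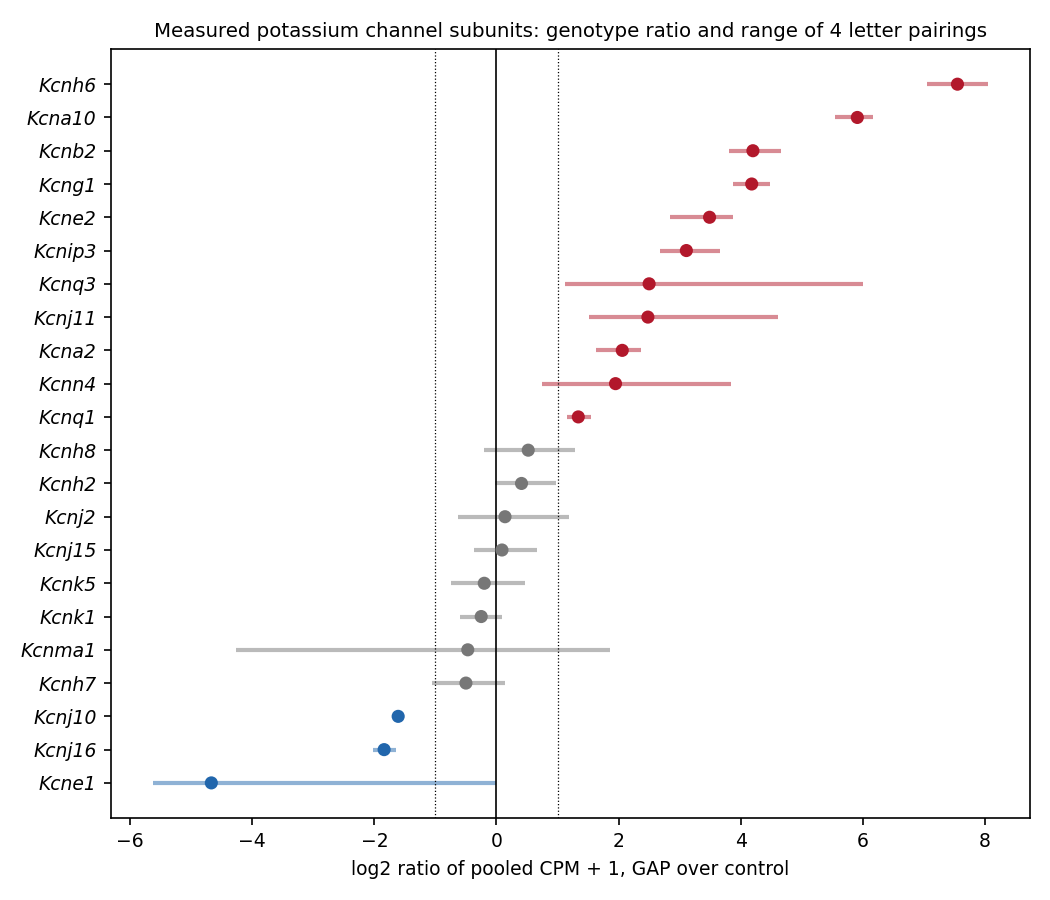
Log2 ratio of pooled CPM + 1, GAP over control, for 22 of the 24 measured potassium channel subunits. Points are the pooled ratios, lines span the 4 combinations of 1 GAP and 1 control letter, dotted lines mark 2-fold, and colours mark genes at least 2-fold higher in GAP cells (red), at least 2-fold lower (blue) or within 2-fold (grey). The lines of Kcnj10 and Kcnj16 stay below the lower 2-fold mark, and that of Kcne1 reaches 0.00 because its UMIs came from 1 letter.

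The list of hair cell channels held 6 genes, among them Kcnh6, Kcnma1, Kcnn2, Kcna10 and Kcnj2. Summed over the list, levels were 435 and 347 CPM in letters C and D of the GAP cells, against 30.7 and 75.8 CPM in letters A and B of the control cells. Of its 5 measured members, 3 were at least 2-fold higher in GAP cells, where 13% of all measured genes were. None was 2-fold lower, where 6.61% of all measured genes were. The list was chosen with earlier results of these data known, and Kcnh6 and Kcna10 reached 10 CPM in GAP cells alone. Its members Kcnma1, Kcnn2 and Kcnj2 lay within 2-fold.

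Kcnh6 encodes the erg-type voltage-gated pore subunit Kv11.2 and lies on mouse chromosome 11 (GRCm38, 106008124 to 106034549, plus strand). It was at 264 and 197 CPM in letters C and D of the GAP cells, against 0 and 0.496 CPM in letters A and B of the control cells. It had at least 1 UMI in 66.1% of GAP cells, against 0.556% of control cells, and in 50% of GAP cells against 0% of control cells after thinning. Its relatives of the erg group, Kcnh2 (Kv11.1) and Kcnh7 (Kv11.3), which were chosen after their values were seen, did not share the difference. Kcnh2 was at 17 CPM in GAP cells and 12.5 CPM in control cells (ratio 1.36, interval 0.951 to 1.96). Kcnh7 was at 8.01 CPM in GAP cells and 11.7 CPM in control cells (ratio 0.682, interval 0.440 to 1.05).

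Kcna10 encodes Kv1.8, a shaker-type pore subunit known from inner ear hair cells, and lies on chromosome 3 (107183056 to 107195721, plus strand). It was at 70.3 and 45.6 CPM in letters C and D of the GAP cells and had 0 UMIs in either control letter, at least 78.8-fold higher when 3 counts over the control cells are set as the limit. It was concentrated in few cells. Only 28.9% of GAP cells had a UMI of it, and 5 cells held 55.8% of its UMIs.

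Kcnma1, the pore of the BK channel of mature hair cells, was at 13.7 and 0 CPM in letters C and D of the GAP cells, against 3.02 and 18.3 CPM in letters A and B of the control cells. Its letters overlapped without order, and it rested on 40 UMIs in GAP cells and 43 in control cells. Kcnn2, the SK2 channel behind efferent inhibition, stayed below 10 CPM, with 28 UMIs in GAP cells and 18 in control cells, a ratio of 1.16 (0.619 to 2.23). Kcnj2, the inward rectifier Kir2.1, was at 17.7 CPM in GAP cells and 16 CPM in control cells (ratio 1.11, interval 0.798 to 1.54).

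The start regions of Kcnh6 and Kcna10, genes whose transcripts were almost absent from control cells, and of Kcnj10, whose transcript was lower in GAP cells, are shown because the GAP allele carries Atoh1, a basic helix-loop-helix factor of a family that binds E-boxes. The sequences are from RefSeq (GRCm38.p6), run 5′ to 3′ on the gene's strand, and cover 250 bases before the start and 50 after it. They are chr11:106007898-106008197, chr3:107182893-107183192 and chr1:172340960-172341259, all on the plus strand. Capitals mark each match to CANNTG, which reads the same on both strands.
Kcnh6: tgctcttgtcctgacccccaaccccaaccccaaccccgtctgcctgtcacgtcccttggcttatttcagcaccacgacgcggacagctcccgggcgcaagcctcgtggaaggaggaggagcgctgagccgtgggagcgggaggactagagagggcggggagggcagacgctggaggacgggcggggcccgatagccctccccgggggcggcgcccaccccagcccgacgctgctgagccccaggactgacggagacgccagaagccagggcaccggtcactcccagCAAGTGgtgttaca
Kcna10: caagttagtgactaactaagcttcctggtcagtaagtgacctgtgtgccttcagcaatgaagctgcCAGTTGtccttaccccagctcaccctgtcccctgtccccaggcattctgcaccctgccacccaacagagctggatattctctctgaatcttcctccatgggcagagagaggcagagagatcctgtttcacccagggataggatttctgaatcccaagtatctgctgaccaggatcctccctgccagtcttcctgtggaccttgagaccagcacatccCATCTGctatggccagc
Kcnj10: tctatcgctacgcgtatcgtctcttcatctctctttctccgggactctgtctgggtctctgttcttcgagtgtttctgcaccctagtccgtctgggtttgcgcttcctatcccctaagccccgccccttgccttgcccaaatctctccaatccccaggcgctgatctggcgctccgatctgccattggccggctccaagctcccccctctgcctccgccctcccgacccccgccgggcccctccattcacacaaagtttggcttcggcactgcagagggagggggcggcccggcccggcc
Kcnh6 held 1 match at position 287 of its window, Kcna10 held 2 at positions 67 and 284, and Kcnj10 held 0. None of the 3 windows held CAGCTG, a form that lies within CANNTG. Among 32851 start regions of the same length, 72.3% held CANNTG and 16.3% held CAGCTG, so a match in one of these windows is common, and nothing is drawn from it about the factor. Start regions were found for 68 of the 93 members.

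The highest Kcnh6 levels were not in the cluster named for hair cells. Its level was 442 CPM (374 to 518) in Reprogrammed Supp Cells 2 and 418 CPM (388 to 449) in Reprogammed Sup Cells 1, which do not differ beyond their counting error, against 51.9 CPM (40.8 to 65.1) in Reprogrammed Hair Cells. It was present in 53 of 54 cells of Reprogammed Sup Cells 1 and 17 of 20 of Reprogrammed Supp Cells 2, against 22 of 51 Reprogrammed Hair Cells. After thinning the shares were 90.7% and 80% in the 2 supporting cell clusters and 15.7% in the hair cell cluster. Within the hair cell cluster 1 cell held 30.7% of the Kcnh6 UMIs, and the level without it was 37 CPM. The letters of the hair cell cluster also differed, at 101 CPM for letter C and 19.5 CPM for letter D, both below the supporting cell clusters of the same letter. In the other 6 clusters Kcnh6 ranged between 0 and 11.1 CPM.

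Kcna10 had another order among the same clusters. It was highest in Reprogrammed Hair Cells at 117 CPM (100 to 136), followed by 93.6 CPM (64 to 132) in Reprogrammed Supp Cells 2, whose interval overlaps, and 19.7 CPM (13.7 to 27.4) in Reprogammed Sup Cells 1. Few cells carried it, 17 of 51 in the hair cell cluster, and 1 cell held 34.3% of its UMIs there. Without that cell the level was 78.6 CPM.

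**Figure D2:**
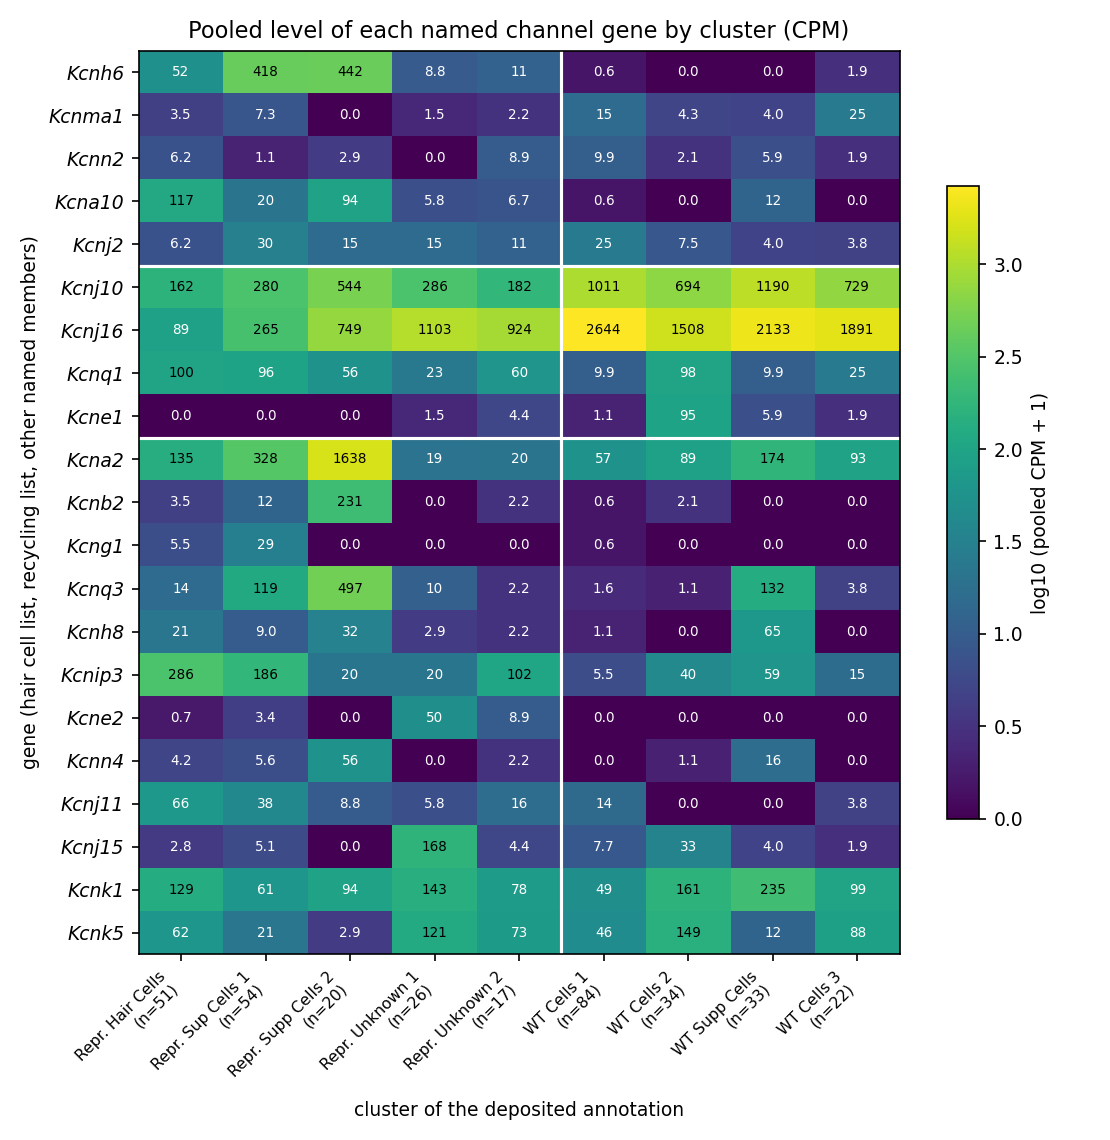
Pooled CPM of 21 named subunit genes (rows) in the 9 clusters of the deposited annotation (columns, reprogrammed clusters left of the white line, clusters named WT right of it), coloured as log10 (CPM + 1). The rows of Kcnh6, Kcna2, Kcnq3 and Kcnb2 are brightest in Reprogrammed Supp Cells 2, those of Kcnip3, Kcna10 and Kcnj11 in Reprogrammed Hair Cells, and those of Kcnj10 and Kcnj16 in clusters named WT.

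Set against the other reprogrammed GAP cells, the 51 Reprogrammed Hair Cells were therefore not higher in the hair cell channel list as a whole. Its summed level was 289 CPM in Reprogrammed Hair Cells and 449 CPM in the 97 GAP cells of the other reprogrammed clusters, a log2 ratio of -0.64 (-0.80 to -0.48). This rests on Kcnh6, at 51.9 CPM in Reprogrammed Hair Cells and 333 CPM in the others, 6.41-fold lower (5.06 to 8.23). It also rests on the letters, since the log2 ratio was -1.14 without letter C and -0.09 without letter D. With Kcnh6 set aside, the rest of the list together was higher in Reprogrammed Hair Cells. Of that rest, Kcna10 was 4.29-fold higher (3.24 to 5.71) there, while Kcnj2 was 3.79-fold lower (1.88 to 8.66). The cluster names are the authors' and were given to the same cells, so these values describe the clusters and test nothing. Both sides share genotype and letters. Of 25 members at 10 CPM or more on either side, 7 were at least 2-fold higher in Reprogrammed Hair Cells, where 9.09% of 10379 genes were, and 10 were at least 2-fold lower, where 10.7% were. The higher members included Kcna10, Kcnh7, Kcnd1, Kcnip3, Kcnj11 and Kcnmb4, of which Kcnh7, Kcnd1 and Kcnmb4 were low and are named after their values were seen, and the lower ones were Kcnh6, Kcna2, Kcnq3, Kcnb2, Kcng1, Kcnn4, Kcne2, Kcnj2, Kcnj15 and Kcnj16. Of these, 3 higher and 6 lower members reached 10 CPM on 1 side alone. Kcnmb4 and Kcng1 changed direction in letter C, with 0 CPM of Kcnmb4 in Reprogrammed Hair Cells against 2.0 CPM in the others and 14 CPM of Kcng1 in Reprogrammed Hair Cells against 7.99 CPM in the others.

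**Figure D3:**
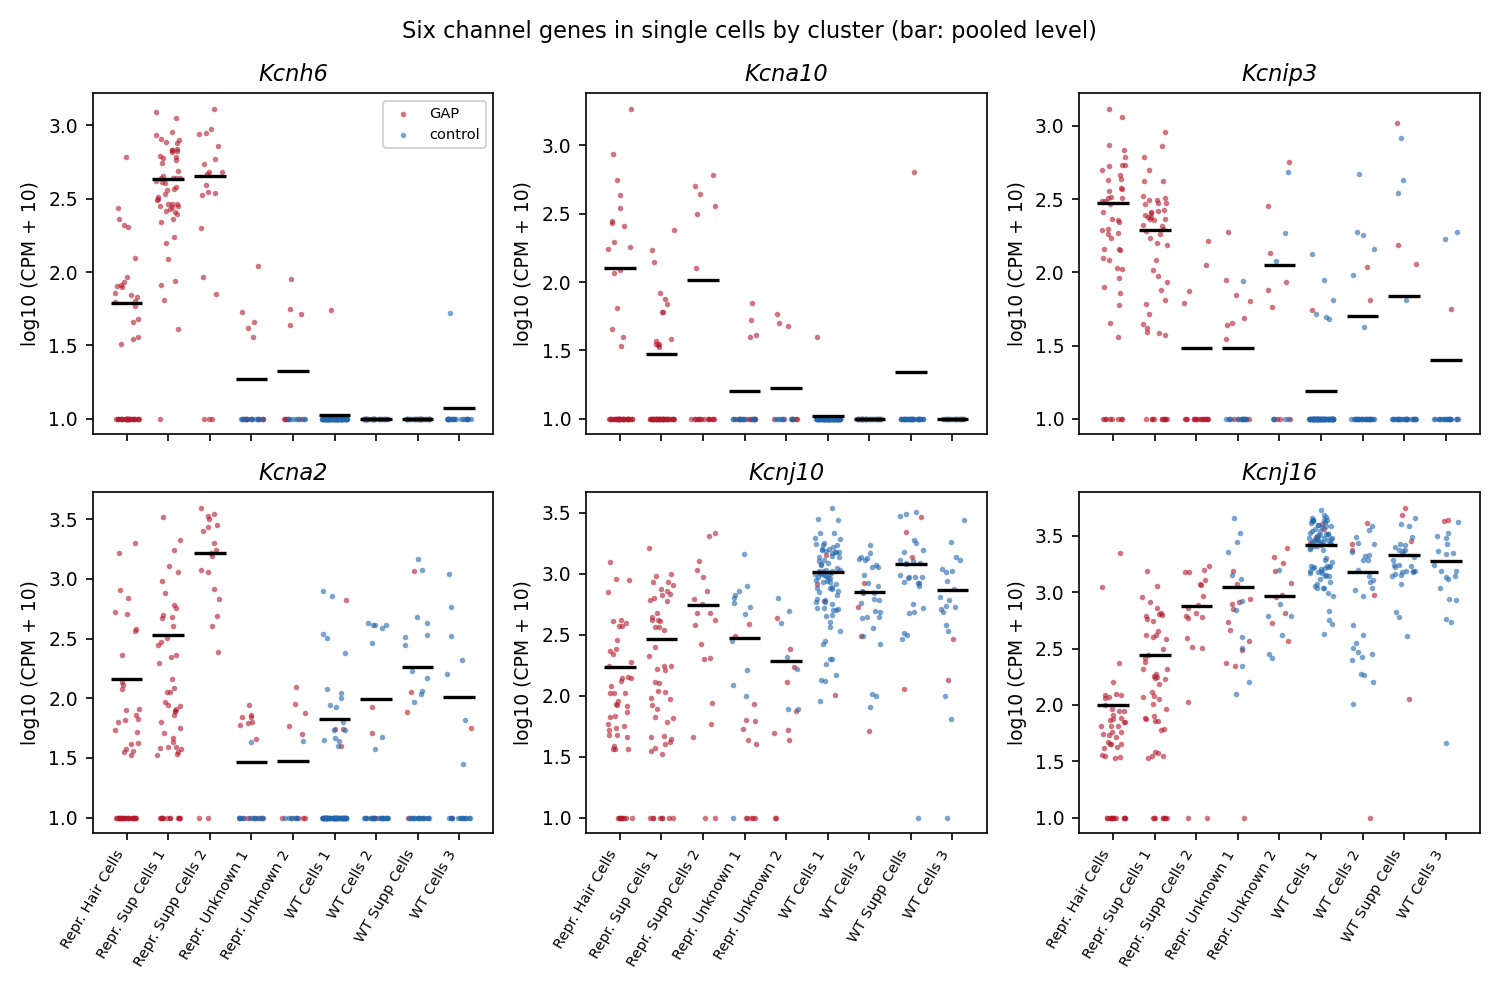
CPM of Kcnh6, Kcna10, Kcnip3, Kcna2, Kcnj10 and Kcnj16 in each cell, as log10 (CPM + 10), by cluster, with GAP cells in red, control cells in blue and the pooled level as a black bar. Cells at 1.0 had no UMI. Nearly every cell of Reprogammed Sup Cells 1 (53 of 54) lies above 1.0 for Kcnh6, against 22 of 51 Reprogrammed Hair Cells, while Kcna10 is lifted by few cells.

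Another group of subunits had its highest level in Reprogrammed Supp Cells 2, a cluster of 20 GAP cells. Kcna2 encodes Kv1.2, a low-threshold shaker-type channel best known from axons, and lies on chromosome 3 (107101146 to 107115005, plus strand), near Kcna10. Over whole genotypes it was at 349 and 225 CPM in letters C and D of the GAP cells, against 72.1 and 66.9 CPM in letters A and B of the control cells, 4.22-fold higher (3.71 to 4.81). In Reprogrammed Supp Cells 2 it reached 1638 CPM (1505 to 1779), in 18 of 20 cells and in both letters, at 1853 CPM for letter C and 1475 CPM for letter D. The next cluster was Reprogammed Sup Cells 1 at 328 CPM (302 to 356), and WT Supp Cells were at 174 CPM (139 to 214). Kcna10 was high in the same cluster too, and both had UMIs in 5 of those 20 cells and in 9 of 51 Reprogrammed Hair Cells.

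Kcnq3 encodes Kv7.3, a subunit of the neuronal M current. It was at 127 and 76.4 CPM in letters C and D of the GAP cells, against 34.3 and 0.991 CPM in letters A and B of the control cells, 5.94-fold higher (4.63 to 7.73). The control letters differed far more than the GAP letters, and the ratio was 105 without letter A and 3.03 without letter B. Kcnq3 had a UMI in all 20 cells of Reprogrammed Supp Cells 2, at 497 CPM (425 to 578). It was next highest in WT Supp Cells at 132 CPM (102 to 168), where 65 of its 67 UMIs came from control cells. As letter B held so little Kcnq3, this second level came almost wholly from letter A. Over all control cells, 5 cells held 84.3% of the Kcnq3 UMIs.

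Kcnb2 encodes the delayed rectifier Kv2.2. It was at 20.1 and 24.2 CPM in letters C and D of the GAP cells, against 0.504 and 0 CPM in letters A and B of the control cells, whose level rests on 1 UMI, and the ratio was 88 (15.5 to 3504). Most of it stood in Reprogrammed Supp Cells 2, at 231 CPM (183 to 288) in 12 of 20 cells, against 11.8 CPM (7.32 to 18.1) in Reprogammed Sup Cells 1. Kcng1 encodes the silent subunit Kv6.1, which works only together with Kv2 subunits. It had 92 UMIs in GAP cells and 0 in control cells, at least 22.9-fold higher, and its highest level in a cluster was 29.3 CPM (21.9 to 38.4) in Reprogammed Sup Cells 1, where 1 cell held 50% of it and the level without that cell was 15 CPM. Kcnn4, the intermediate-conductance calcium-activated channel, was at 13.3 and 7.39 CPM in letters C and D of the GAP cells, against 4.03 and 0 CPM in letters A and B of the control cells, 5.31-fold higher (2.52 to 12.9). The ratio was 2.63 without letter B, and with 10 CPM added to both levels its log2 ratio was 0.78, under 2-fold. It was at 55.6 CPM (33.5 to 86.8) in Reprogrammed Supp Cells 2, or 30.4 CPM without the cell that held most of it. All 8 of its control UMIs were in 1 cell.

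Reprogrammed Supp Cells 2 held 401 UMIs of erythroid markers, 395 of them in 1 cell of letter C. Without that cell the cluster was at 1595 CPM of Kcna2, 461 CPM of Kcnh6, 501 CPM of Kcnq3 and 243 CPM of Kcnb2. The cluster was also the shallowest of the reprogrammed ones, with a median of 15521.5 UMIs, and its thinned shares stayed at 90% of cells for Kcna2 and 90% for Kcnq3.

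A further group was highest in Reprogrammed Hair Cells. Kcnip3 encodes KChIP3, a calcium-binding auxiliary subunit of Kv4 channels that is also known as the repressor DREAM. It was at 193 and 187 CPM in letters C and D of the GAP cells, against 28.2 and 14.4 CPM in letters A and B of the control cells, 8.97-fold higher (7.18 to 11.3). All GAP letters lay above all control letters, and 71.1% of GAP cells had a UMI against 12.2% of control cells. Its level was 286 CPM (259 to 315) in Reprogrammed Hair Cells and 186 CPM (166 to 207) in Reprogammed Sup Cells 1, but only 20.5 CPM in Reprogrammed Supp Cells 2, the reverse of Kcna2. Its Kv4 pore partners, which were chosen after their values were seen, stayed low. The 3 Kv4 genes together were at 8.57 CPM in GAP cells and 0 CPM in control cells.

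Kcnj11 encodes Kir6.2, the pore of the ATP-sensitive potassium channel, which reaches the membrane only with a sulfonylurea receptor such as SUR1, the product of Abcc8. Kcnj11 was at 37.5 and 48 CPM in letters C and D of the GAP cells, against 1.01 and 12.4 CPM in letters A and B of the control cells, 6.27-fold higher (4.20 to 9.72). Leaving out letter B moved the ratio to 42 and leaving out letter A to 3.41. Abcc8 was at 39.6 and 50.9 CPM in letters C and D of the GAP cells, against 0 and 1.49 CPM in letters A and B of the control cells, which rest on 3 UMIs in 1 cell, and was 59.6-fold higher (20.2 to 291). The pore and the receptor had their highest levels in the same 2 clusters, with 66.5 CPM of Kcnj11 and 61.6 CPM of Abcc8 in Reprogrammed Hair Cells and 38.3 and 59.7 CPM in Reprogammed Sup Cells 1. Kcnj11 and Abcc8 had UMIs in the same cell in 32 of 180 GAP cells and 0 of 180 control cells, which allows a share of up to 1.67% of cells with UMIs of both. This limits detection and not the share of cells that hold both transcripts. Of those 32 cells, 13 were among the 51 Reprogrammed Hair Cells, 10 among the 54 Reprogammed Sup Cells 1 and 9 among the 17 GAP cells without a cluster, which were deep, with a median of 49455 UMIs. After thinning, 15 GAP cells and 0 control cells held both. In Reprogrammed Supp Cells 2 Abcc8 had no UMI.

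Among the 12 channel partner genes that are not named Kcn, 2 were measured. Abcc8 was the one that differed by 2-fold, and Dpp10, a Kv4 partner, was at 14.2 CPM in GAP cells and 12.2 CPM in control cells. Chosen after their values were seen, the Hcn genes of hyperpolarization-activated channels stayed below 10 CPM, and Hcn2 and the BK partner Lrrc52 had no UMI.

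The list of recycling channels held 4 genes, Kcnj10, Kcnj16, Kcnq1 and Kcne1. Its summed level was 914 and 919 CPM in letters C and D of the GAP cells, against 2612 and 3176 CPM in letters A and B of the control cells. All 4 members were measured. In GAP cells 3 were at least 2-fold lower, where 6.61% of all measured genes were. Kcnq1 was at least 2-fold higher, where 13% of all measured genes were.

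Kcnj10 lies on chromosome 1 (172341210 to 172374085, plus strand) and encodes Kir4.1, which clears potassium in supporting cells and glia. It was at 278 and 284 CPM in letters C and D of the GAP cells, against 839 and 882 CPM in letters A and B of the control cells, and the 4 pairings lay within log2 ratios of -1.66 to -1.56. Kcnj16, which encodes the partner Kir5.1, lies on chromosome 11 (110968033 to 111027968, plus strand). It was at 557 and 544 CPM in letters C and D of the GAP cells, against 1738 and 2215 CPM in letters A and B of the control cells, 3.59-fold lower (3.44 to 3.74). Neither gene's letters overlapped between genotypes. A Kcnj10 UMI was found in 84.4% of GAP cells and 97.8% of control cells, or 61.7% and 94.4% after thinning. A Kcnj16 UMI was found in 85% of GAP cells and 100% of control cells, or 67.8% and 98.9% after thinning.

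By cluster, Kcnj10 was highest in WT Supp Cells at 1189.8 CPM (1097 to 1289) and lowest in Reprogrammed Hair Cells at 162 CPM (142 to 184). Kcnj16 was highest in WT Cells 1 at 2644 CPM (2570.0 to 2720.1) and again lowest in Reprogrammed Hair Cells, at 89.3 CPM (74.6 to 106), of which 1 cell held 30.2%. Against the other reprogrammed GAP cells, Kcnj16 was 5.13-fold lower (4.27 to 6.20) in Reprogrammed Hair Cells and Kcnj10 1.68-fold lower (1.45 to 1.95). The whole recycling list was at 351 CPM in Reprogrammed Hair Cells and 806 CPM in the other reprogrammed GAP cells, a log2 ratio of -1.20 (-1.34 to -1.06).

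The 15 GAP cells that the annotation places in clusters named WT had Kcnj16 at the level of their clusters or above it. Kcnj16 was at 3101 CPM (2918 to 3293) in these cells, against 2099 CPM (2050.5 to 2148) in the 158 control cells of the same clusters, a ratio of 1.48 (1.38 to 1.58). Kcnj10 was at 739.6 CPM (651 to 836) in the same 15 cells and 935 CPM (903 to 967) in those control cells, a ratio of 0.791 (0.694 to 0.899). The 148 GAP cells in reprogrammed clusters were at 329.8 CPM of Kcnj16 and 234 CPM of Kcnj10. These 15 cells also had little Kcnh6, 1 UMI in all, while 7 UMIs of Kcna10 were found among them, 6 in 1 cell. Kcnip3 was at 61.2 CPM in the 15 cells and 18.9 CPM in those control cells, a ratio of 3.24 (1.88 to 5.37). The ratios were 2.08 (1.25 to 3.32) for Kcnq1 and 1.74 (1.26 to 2.38) for Kcna2. They were 0.430 (0.0866 to 1.31) for Kcnq3 and 0.772 (0.0888 to 3.08) for Kcnj11. Kcnq1 was at 97.9 CPM in WT Cells 2 and 9.87 to 24.7 CPM in the other clusters named WT. The part of the cluster mix in these ratios was not tested.

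Reprogrammed Unknown 1 is the one cluster with 13 cells of each genotype, and 11 of its GAP cells were of letter C. Within it Kcnj10 was at 74 CPM in GAP cells and 509 CPM in control cells (ratio 0.146, interval 0.0924 to 0.221), and Kcnj16 was at 629 CPM in GAP cells and 1601 CPM in control cells (ratio 0.393, interval 0.335 to 0.461). A single GAP cell held 46.2% of the Kcnj10 UMIs of these GAP cells, and the level without it was 43.9 CPM. Kcnk1 was also lower there, at 74 CPM in GAP cells and 215 CPM in control cells. Kcne2, an auxiliary subunit of KCNQ and erg channels, had 34 UMIs in 6 of the 13 GAP cells and 0 in the control cells. These 34 were most of the 55 UMIs that Kcne2 had in all, all of them in GAP cells. Kcnj15, the epithelial inward rectifier Kir4.2, was at 245 CPM in the GAP cells and 86.8 CPM in the control cells of this cluster, but 1 GAP cell held 61.6% of it, and without that cell the level was 106 CPM.

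The balance between the Kir5.1 and Kir4.1 transcripts differed between clusters. The UMIs of Kcnj16 per UMI of Kcnj10 were 0.551 (0.441 to 0.686) in Reprogrammed Hair Cells, 0.948 (0.834 to 1.08) in Reprogammed Sup Cells 1 and 1.38 (1.14 to 1.67) in Reprogrammed Supp Cells 2. In the clusters named WT they were between 1.79 (1.62 to 1.98) in WT Supp Cells and 2.62 (2.48 to 2.76) in WT Cells 1. The highest values were 3.86 (3.29 to 4.54) in Reprogrammed Unknown 1 and 5.09 (4.0 to 6.53) in Reprogrammed Unknown 2, both of which mix genotypes. Within Reprogrammed Unknown 1 the quotient was 8.5 (5.65 to 13.3) in the 13 GAP cells and 3.15 (2.64 to 3.76) in the 13 control cells, and in the 10 GAP cells of Reprogrammed Unknown 2 it was 10.5 (7.12 to 16.1). Over whole genotypes the quotient was 1.96 (1.84 to 2.09) in GAP cells and 2.30 (2.21 to 2.39) in control cells, so pooled cells show little of what the clusters show. Per kilobase of exon the quotient was 0.757 in Reprogrammed Hair Cells and 3.59 in WT Cells 1.

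**Figure D4:**
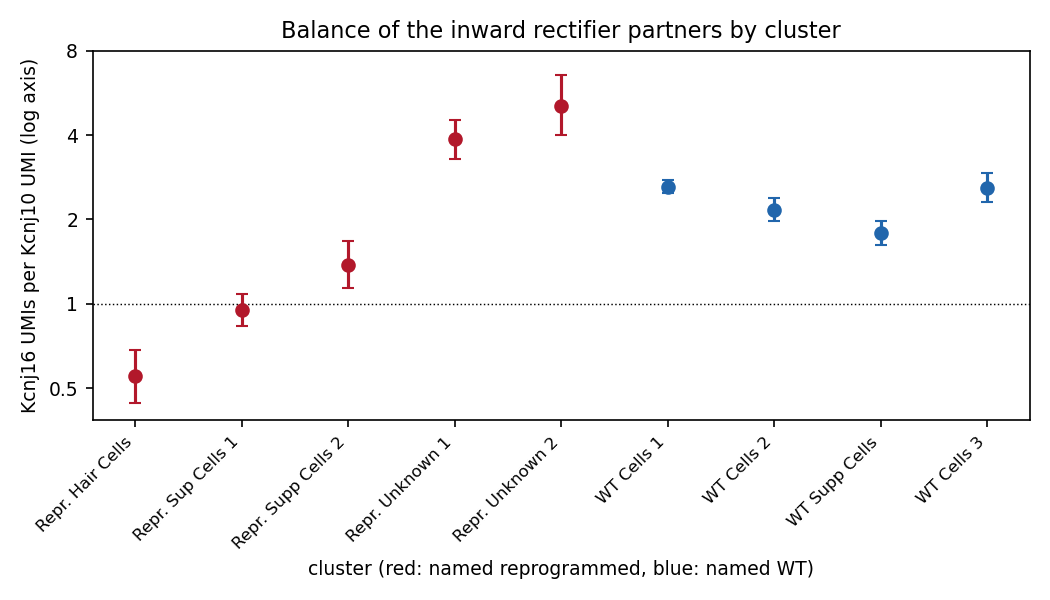
UMIs of Kcnj16 per UMI of Kcnj10 in each cluster, on a log axis, with the exact 95% interval for counting error, for clusters named reprogrammed (red) and named WT (blue). Each point pools the GAP and control cells of its cluster. Reprogrammed Hair Cells, all GAP, lie lowest at 0.551, and Reprogrammed Unknown 2, with 10 GAP and 7 control cells, highest at 5.09.

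Kcnq1 encodes Kv7.1, which forms the potassium exit of strial marginal cells with the subunit from Kcne1. It was at 78.5 and 90.7 CPM in letters C and D of the GAP cells, against 34.8 and 30.2 CPM in letters A and B of the control cells, 2.59-fold higher (2.12 to 3.17). It was about equally high in Reprogrammed Hair Cells at 99.7 CPM (84.1 to 117), WT Cells 2 at 97.9 CPM (78.9 to 120.1) and Reprogammed Sup Cells 1 at 95.8 CPM (81.9 to 111), whose intervals overlap. In WT Cells 2, 1 cell held 38% of it, and the level without that cell was 62.6 CPM. Kcnq1 shares 121 exonic bases with Kcnq1ot1 on the opposite strand, and the use of strand in counting is not given in the sources used here. In GAP cells it came without Kcne1, which had 0 UMIs there and 98 in control cells, all of letter B. A single control cell in WT Cells 2, chosen after its values were seen, held 88 of them. The same cell held 35 UMIs of Kcnq1, 144 of Slc12a2, the basolateral potassium uptake carrier of marginal cells, 498 of the sodium pump subunit Atp1b2, 11 of the marginal cell marker Atp13a5 and only 2 of Kcnj10, among 28610 UMIs. The marginal cell markers Esm1, Hmx2 and Stra6 had 0 UMIs in it. Without letter B both genotypes had 0 UMIs of Kcne1, so the lower level in GAP cells rests on that letter and mostly on that cell.

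The hair cell channel Kcnh6 and the recycling channel Kcnj10 had UMIs in the same cell in 100 of 180 GAP cells and 1 of 180 control cells. In Reprogammed Sup Cells 1 both were found in 45 of 54 cells and in Reprogrammed Supp Cells 2 in 15 of 20 cells, against 16 of 51 Reprogrammed Hair Cells. After thinning, 29 of 54, 14 of 20 and 2 of 51 cells of the same clusters held both. Of the 51 Reprogrammed Hair Cells, 25 had Kcnj10 alone, 6 had Kcnh6 alone and 4 had neither.

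**Figure D5:**
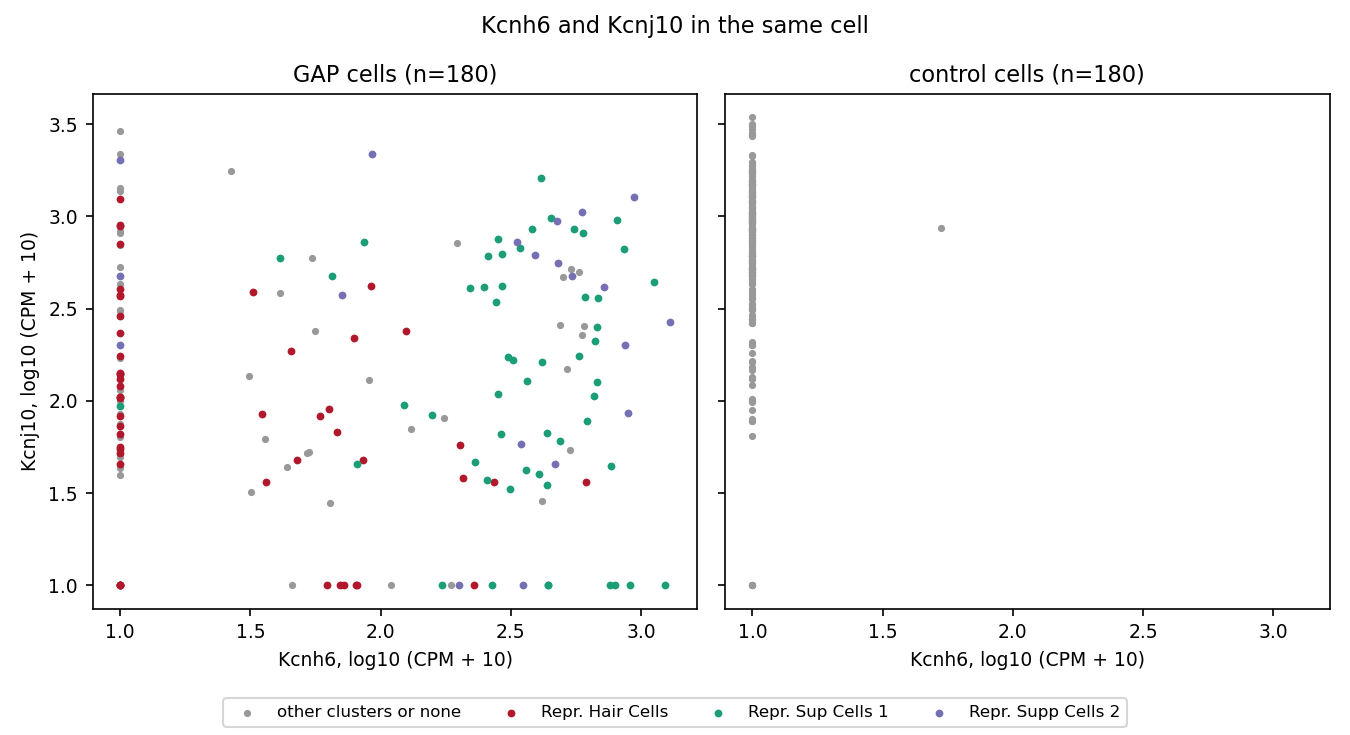
Kcnh6 and Kcnj10 in each of 180 GAP cells (left) and 180 control cells (right), as log10 (CPM + 10), where 1.0 means no UMI. Cells of Reprogammed Sup Cells 1 (green) and Reprogrammed Supp Cells 2 (violet) mostly carry both transcripts, and all control cells but 1 lie on the line without Kcnh6.

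Per kilobase of exon, the leading subunit differed between clusters. Kcnh6 led in Reprogammed Sup Cells 1 with 118 CPM per kilobase, ahead of Kcnj16 with 67.4, and Kcnip3 led in Reprogrammed Hair Cells with 80.6 CPM per kilobase, ahead of Kcnk1 with 57.9 and Kcna10 with 54. In the other 7 clusters Kcnj16 led, at 190.2 CPM per kilobase in Reprogrammed Supp Cells 2 and 672 in WT Cells 1.

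Of the 14 two-pore background channel genes, 7 had a UMI and 2 were measured, and these 2 lay within 2-fold between genotypes. Kcnk1 (TWIK1) was at 104 and 85.8 CPM in letters C and D of the GAP cells, against 131 and 97.2 CPM in letters A and B of the control cells, a ratio of 0.841 (0.740 to 0.956), with overlapping letters. Kcnk5 (TASK2), an epithelial background channel, was at 57.2 CPM in GAP cells and 66 CPM in control cells (ratio 0.867, interval 0.733 to 1.03). Among clusters they were less even. Kcnk1 was highest in WT Supp Cells at 235 CPM (195 to 281), and Kcnk5 was at 149 CPM (125 to 176) in WT Cells 2 but 2.92 CPM in Reprogrammed Supp Cells 2 and 11.8 CPM in WT Supp Cells. Kcnh8, an elk-type pore subunit, was at 12.3 CPM in GAP cells and 8.25 CPM in control cells, with its highest level in WT Supp Cells at 65.1 CPM (44.8 to 91.4), which overlaps the 32.2 CPM (16.1 to 57.6) of Reprogrammed Supp Cells 2.

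Carriers, pumps and gap junctions move potassium beside the channels. Of 18 genes in that list, 9 were measured. None was 2-fold higher in GAP cells, where 13% of all measured genes were, and 1 was 2-fold lower, where 6.61% were. That one was Slc12a7, a potassium-chloride cotransporter of supporting cells. It was at 289 and 246 CPM in letters C and D of the GAP cells, against 761 and 566 CPM in letters A and B of the control cells, 2.46-fold lower (2.30 to 2.62), though letters C and B lie within 2-fold of each other. Among clusters Slc12a7 stood highest in WT Supp Cells, at 3133 CPM, where Kcnj10 did too. The gap junction genes Gjb2 and Gjb6, the second chosen after its values were seen, were 1.79-fold (1.72 to 1.87) and 1.73-fold lower (1.61 to 1.87) in GAP cells.

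Markers of other cell types that use these channels were looked for. Of 6 markers of strial intermediate cells and melanocytes, which hold Kir4.1 in the stria, 3 (Tyr, Tyrp1 and Mlana) had no UMI. The list summed to 47.7 CPM in GAP cells and 87.7 CPM in control cells, of which Met alone was 44.5 and 81 CPM. The 8 markers of Schwann and satellite glia, with Cdh19 at 0, summed to 92.8 CPM in GAP cells and 113 CPM in control cells. Neuronal markers, with Nefl and Tubb3 at 0, summed to 259.8 CPM in GAP cells and 168 CPM in control cells. Nearly all of this was Map2, at 242 CPM in GAP cells and 167 CPM in control cells, which ranged between 127 and 288 CPM across the clusters. Endothelial and pericyte markers, with Cdh5 and Cldn5 at 0, summed to 140.3 CPM in GAP cells and 25 CPM in control cells. Most of the last sum in GAP cells was the pericyte gene Rgs5, at 97.6 CPM in GAP cells and 1.0 CPM in control cells. Rgs5 was at 203 CPM in Reprogammed Sup Cells 1 and 65.1 CPM in Reprogrammed Hair Cells, where Pdgfrb of the same list was at 3.94 and 1.38 CPM. Kdr, also of this list, was at 397 CPM in Reprogrammed Unknown 2 and 0 to 5.07 CPM in the other clusters. The part of these other cell types in the channel differences was not tested.

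The exons of Kcnj15, Kcnk1, Kcnma1, Kcnn2, Kcnh7 and Kcnmb4 also overlap a gene on the opposite strand, so reads of both may have been counted in them.

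The 70 members outside the rule for named genes were low, and the highest of them had 141 UMIs in all. Of the 67 members with a UMI, 26 had theirs in GAP cells alone and 5 in control cells alone. GAP cells gave 5366362 UMIs and control cells 4001274. The part of this unequal depth in the counts of members found in 1 genotype alone was not tested. The share of all genes found in 1 genotype alone was not counted, so these counts describe the members and nothing more. The 26 members with no UMI included the Kv1 gene Kcna1, the two-pore genes Kcnk3 and Kcnk9 and the inward rectifier gene Kcnj13. For a member with 0 UMIs in all 360 cells, the limit of 3 counts is 0.320 CPM.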

How the data were processed

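SMART-MATQ single-cell libraries of 180 GAP and 180 control cochlear cells were deposited by the authors as an exon matrix of UMI counts, not normalized, with their cluster annotation. Per the submitters' processing notes, STAR, HTSeq and mm10 were used; the versions, the annotation release, how UMIs were collapsed and whether strand was used in counting: not given in the sources used here. No cell was filtered or called a doublet here. Counts were summed over cells and divided by the summed total (CPM). Ratios are on the CPM scale; log2 ratios add 1 CPM. Genes at 10 CPM or more on either side are called measured. Named genes were the members of the hair cell and recycling lists, members that reached 50 CPM in either genotype or any cluster of at least 10 cells, and members at 10 CPM or more that were 2-fold different the same way in all 4 letter pairings; others are marked as chosen after their values were seen. Partners and carriers were named if 2-fold different in all 4 pairings or among the 4 of their list with most UMIs. The members and lists were chosen with earlier results of these data known. Exon lengths came from GENCODE M21, in which 40606 of 48440 identifiers had the same version. For normalization alternatives, edgeR 4.0.16 in R 4.3.3 gave TMM factors; the rest ran in Python 3.11.15 with scipy 1.17.1, and was tested on simulated counts. Alternatives were other scalings, filters and pseudocounts, thinning, deeper cells, leaving out each letter, and leaving out top cells. A count of 0 was read against a limit of 3 counts. Reads were not used. Some genes of the lists enter the counts and sums and are not reported here by name.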

Additional observations from a re-analysis of the deposited data

Results flagged for a closer look

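Kcnmb4os2, one of the antisense transcripts set aside from the subunit genes, had UMIs in GAP cells and none in control cells. Its level was 0.932 CPM in GAP cells, from 5 UMIs that all came from letter D, and 0 CPM in control cells. It was singled out because it lies outside the subunit genes and had UMIs in GAP cells alone. The interval of its ratio, 0.683 upwards, includes 1, so it does not stand above control cells beyond counting error. Its exons share 693 bases with Kcnmb4 on the opposite strand, and Kcnmb4 was at 1.02 and 12.7 CPM in letters C and D of the GAP cells, against 3.53 and 4.46 CPM in letters A and B of the control cells.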

How the results depend on the processing

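Of 76 values over all alternatives for the counts of members and the list summaries, 61 stayed close to the reported value. Close means within 1.5-fold for a count and within the counting interval of the reported value for a log2 ratio. None of the log2 ratios changed sign, and a count has no direction to change. The count of members at least 2-fold higher in GAP cells (13) was 7 with a filter of 50 CPM and 25 with no filter, and 10 to 14 otherwise. The count of lower members (3) was 6 with no filter and 2 to 4 otherwise. The median log2 ratio of the hair cell channel list (1.66) was 4.04 without letter B, 3.69 without the cell with most UMIs of each gene, 5.91 with a filter of 50 CPM and 0.92 with no filter, and 1.29 to 1.93 otherwise. That of the recycling list (-1.73) was -1.62 with CPM averaged over cells, -1.57 without letter B and -1.61 with a filter of 50 CPM, and -1.83 to -1.63 otherwise. Between Reprogrammed Hair Cells and the other reprogrammed GAP cells, the log2 ratio of the hair cell channel list (-0.64) was -1.14 without letter C, -0.09 without letter D, -0.96 without top cells and -0.95 against the 2 reprogrammed supporting cell clusters alone, a choice made after seeing the data. That of the recycling list (-1.20) was -1.39 without top cells. The filters change which genes enter; the cause of the other shifts was not tested. Of 253 alternative genotype ratios of named genes, 42 moved. Of 1518 alternative cluster levels, 310 moved, most often without the cell with most UMIs of the gene, where 80 moved and 127 did not. No paired analysis was possible because the labels give no replicate shared by both genotypes and each genotype is 1 sample.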
